A study of Mus musculus with 8 samples.

Results

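The transcripts described here are those of 9 receptors and lectins with which liver cells take up material from blood: *Marco*, *Msr1*, *Cd163*, *Mrc1*, *Cd36*, *Scarb1*, *Fcna*, *Asgr1* and *Asgr2*. They were found by symbol in a table of 14506 genes, which listed all 9. *Marco* was chosen by its normalized counts, which were higher in the *Rragc* S74N/+ livers of this same table, so its genotype difference is given as a description and was not tested. The other 8 were chosen as scavenger or lectin receptors of liver macrophages and hepatocytes, with results of these data already known.

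Whole livers of 4 *Rragc* +/+ and 4 *Rragc* S74N/+ mice were profiled by sequencing the 3′ ends of messenger RNA. *Rragc* encodes RagC, a GTPase through which nutrients act on mTORC1, a growth-promoting kinase complex. The S74N allele, an activating substitution made by CRISPR editing in mice of the C57BL/6 background, was present in all tissues and on 1 allele. The comparison asks how the livers of young mice with this allele differ. The *Rragc* +/+ mice were 3, 3, 3 and 2.5 months old (replicates 1 to 4) and the *Rragc* S74N/+ mice 3, 3, 2.5 and 2 months old. The labels name no treatment and no sex. The allele acts in hepatocytes, in macrophages and in the rest of the body, so the tissue in which a difference arises cannot be told apart, and neither can the age and the genotype of the only 2-month-old mouse, *Rragc* S74N/+ replicate 4.

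Scavenger receptors bind modified lipoproteins, dying cells, haemoglobin complexes and the surfaces of bacteria, and carry them into the cell. Kupffer cells, the resident macrophages that line the liver sinusoids, are the main macrophage that uses them, together with the sinusoidal endothelium, while hepatocytes use their own receptors to take up lipoprotein cholesterol and glycoproteins that have lost their sialic acid. Lectin receptors bind the sugars on such ligands, and ficolins and mannose-binding lectins are secreted relatives that label microbes in blood. In whole tissue, fewer cells of a type and less RNA per cell cannot be told apart.

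Between 4313076 and 6632108 reads per liver lay in listed genes, with size factors of 0.707 to 1.23. Each pair of livers differed by far more than counting noise, with a chi-square per degree of freedom of 14.6 to 101 over 28 pairs. *Rragc* itself was at 84.1 ± 20.4 normalized counts in the wild-type group and 76.6 ± 7.32 in the S74N/+ group (n = 4 each, SD), and the base changes of the S74N allele cannot be seen in these counts. Livers of both genotypes held the defining hepatocyte transcripts, *Ttr* for example at 73290 ± 7920 and 88156 ± 7436 (n = 4 each, SD). The labels give 1 mouse per library, and intervals for single livers cover counting error only, since reads without molecular identifiers are not independent molecules.

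Upstream sequence is shown for the 3 members that lay farthest from 0 in the genotype comparison, to place their genes. *Marco* lies on chromosome 1 of GRCm38 (120474538 to 120505024, reverse strand), *Cd163* on chromosome 6 (124304656 to 124330527, forward strand) and *Fcna* on chromosome 2 (25624666 to 25628030, reverse strand), where an antisense gene, *Fcnaos*, lies on the other strand and reads were counted by strand. The sequences are from RefSeq (GRCm38.p6), written 5′ to 3′ on the strand of the gene and ending before the GENCODE transcript, which for *Fcna* begins upstream of the RefSeq start, so that 194 of the 250 bases are shown: chr1:120505025-120505274 for *Marco*, chr6:124304401-124304650 for *Cd163* and chr2:25628031-25628224 for *Fcna*. Capitals mark GAGGAA, the PU box, which is the core bound by the macrophage factor PU.1.
Marco: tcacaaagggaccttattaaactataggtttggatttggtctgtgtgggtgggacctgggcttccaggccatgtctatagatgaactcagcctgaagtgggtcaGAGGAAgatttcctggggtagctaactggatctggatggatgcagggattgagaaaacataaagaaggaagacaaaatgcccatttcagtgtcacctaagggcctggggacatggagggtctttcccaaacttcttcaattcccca
Cd163: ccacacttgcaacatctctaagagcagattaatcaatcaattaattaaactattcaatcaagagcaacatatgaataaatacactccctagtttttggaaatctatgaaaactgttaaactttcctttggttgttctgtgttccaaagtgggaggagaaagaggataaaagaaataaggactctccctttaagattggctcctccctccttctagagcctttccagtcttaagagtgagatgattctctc
Fcna: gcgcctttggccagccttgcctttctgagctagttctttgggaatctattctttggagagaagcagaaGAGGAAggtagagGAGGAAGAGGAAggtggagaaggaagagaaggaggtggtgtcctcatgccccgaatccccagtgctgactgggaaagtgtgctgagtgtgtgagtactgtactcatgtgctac
The 250 bases before the RefSeq start held 1 PU box in *Marco*, 146 to 141 bases upstream, 3 in *Fcna*, between 182 and 158 bases upstream of the RefSeq start, and none in *Cd163*. On either strand, 23.3% of the 32851 windows of all genes held it, so a match is common. Of the 7 members with a window (*Msr1* and *Scarb1* had none), *Mrc1* held 3 PU boxes and *Asgr1* 1. The E-box CACGTG, in 6.02% of windows, occurred before *Asgr2*, the AP-1 site TGACTCA, in 4.46% of windows, occurred before *Asgr1*, and no member held TCACGTGA (0.785% of windows, a longer form of CACGTG) or TGACNNNGC (10.2% of windows).

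*Marco* was higher in all 4 *Rragc* S74N/+ livers, the difference for which it was picked. Among the other macrophage members, *Cd163* and *Fcna* were lower on average, *Msr1* and *Mrc1* differed little, and none passed the adjusted threshold. *Marco*, the macrophage receptor with collagenous structure, is a class A scavenger receptor that binds bacteria and particles. Its normalized read count was 20.5, 22.4, 25.5 and 20.6 in the *Rragc* +/+ livers, and the *Rragc* S74N/+ livers gave 79.0, 113.8, 37.9 and 124.8 (here and for every gene in order of replicate number). The groups did not overlap, and the *Rragc* S74N/+ livers were spread far more widely, with replicate 3 closest to the *Rragc* +/+ livers. Mean levels were 22.2 ± 2.33 and 88.9 ± 39.2 (n = 4 each, SD), a ratio of 3.99, and the log2 difference on the log2(normalized count + 1) scale was 1.82 with a standard error of 0.37. The relative spread within a group (SD over mean) was 10.5% in *Rragc* +/+ and 44.1% in *Rragc* S74N/+ livers. Over all 11174 genes tested, 145 (1.30%) had higher values in every *Rragc* S74N/+ liver than in any *Rragc* +/+ liver, and nothing is read from *Marco* being among them, since it was picked for that difference.

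The *Marco* values rest on 18 to 24 reads in *Rragc* +/+ and 34 to 153 reads in *Rragc* S74N/+ livers. The exact Poisson 95% interval reached at most 40.2 normalized counts in a *Rragc* +/+ liver. It began at 63.2, 94.9 and 105.8 in *Rragc* S74N/+ replicates 1, 2 and 4 and at 26.2 in replicate 3, the 1 liver of that genotype whose interval met those of the *Rragc* +/+ livers. Among 3-month-old mice alone, *Marco* was at 22.8 in 3 *Rragc* +/+ livers and 96.4 in 2 *Rragc* S74N/+ livers.

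**Figure D1:**
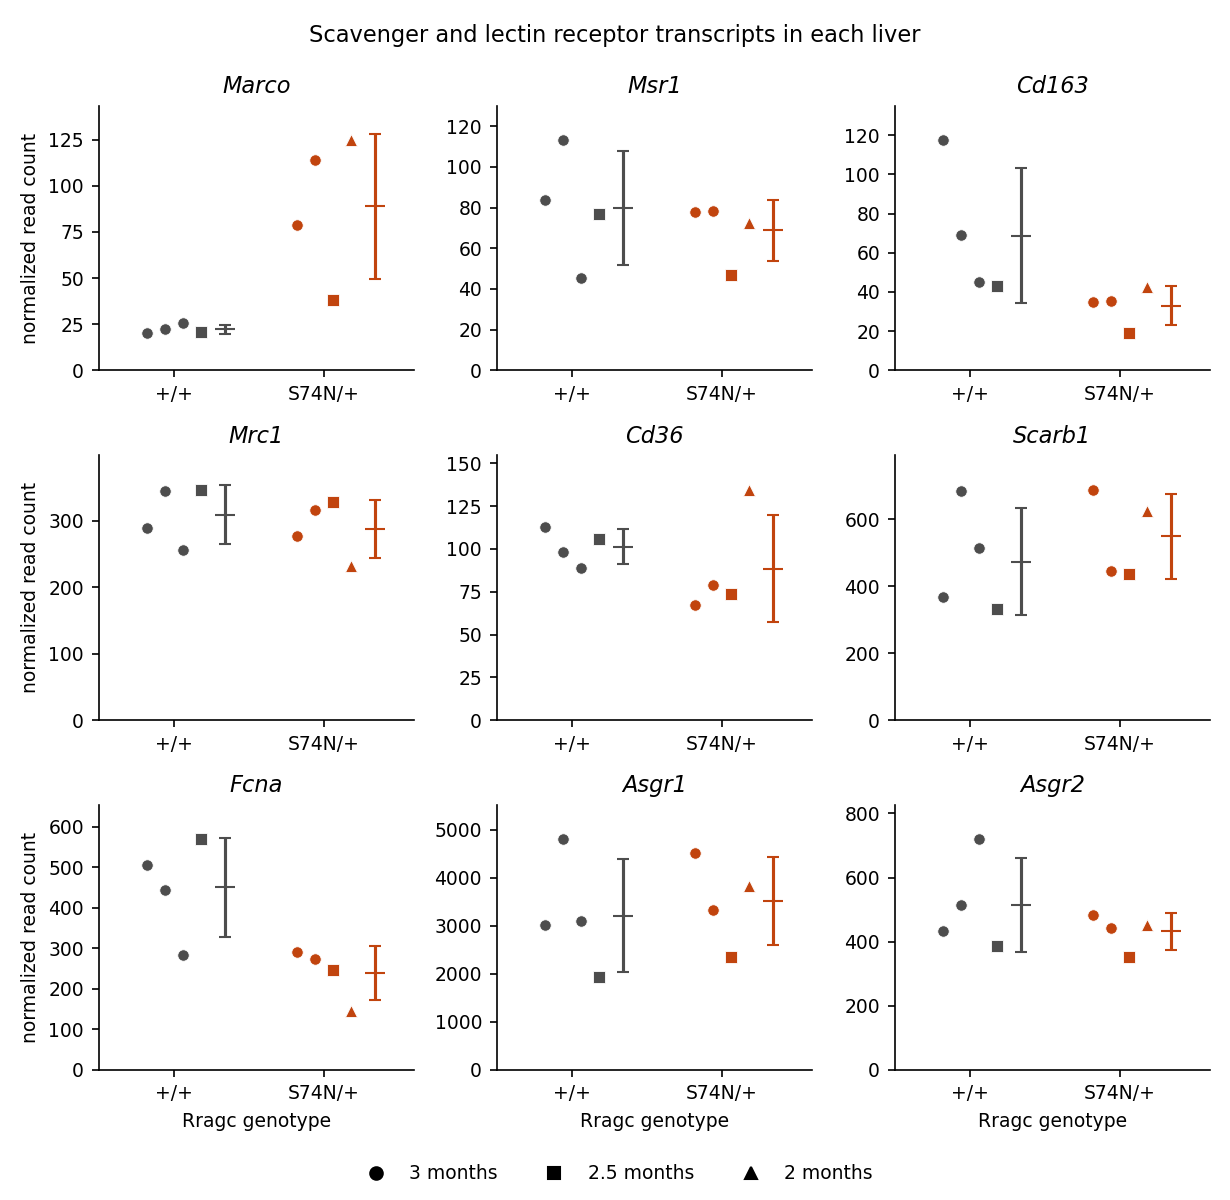
Normalized read count (vertical axis, linear from 0) of each of the 9 transcripts in each liver, by *Rragc* genotype. Points are livers, their shape gives the age of the mouse, and bars are the mean ± SD of 4 livers. *Marco* lies between 20.5 and 25.5 in *Rragc* +/+ and between 37.9 and 124.8 in *Rragc* S74N/+ livers, and *Cd163* and *Fcna* lie lower on average in *Rragc* S74N/+ livers.

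*Msr1*, the other class A receptor of the set, takes up acetylated and oxidized low-density lipoprotein. It was at 83.9, 113.2, 45.3 and 76.6 normalized counts in *Rragc* +/+ and 78.0, 78.2, 46.8 and 72.6 in *Rragc* S74N/+ livers. The genotypes overlapped throughout, and the replicate 3 liver was the lowest of each. The log2 difference was -0.16 with a standard error of 0.31 and a 95% interval from -0.84 to 0.51 (limma, adjusted p = 0.911 over all tested genes).

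*Cd163* takes up complexes of haptoglobin and haemoglobin and carries cysteine-rich scavenger domains, of the kind that *Marco* also has. Its normalized count was 117.5, 69.2, 45.3 and 43.0 in *Rragc* +/+ livers and 34.9, 35.6, 18.9 and 42.4 in *Rragc* S74N/+ livers. Every *Rragc* S74N/+ liver lay below every *Rragc* +/+ liver, but the closest, *Rragc* +/+ replicate 4 and *Rragc* S74N/+ replicate 4, were nearly level. The log2 difference was -0.97 with a standard error of 0.38 and a 95% interval from -1.79 to -0.16. This did not pass the threshold (limma, adjusted p = 0.846), and only 17 to 126 reads stood behind each value. It was -0.68 without *Rragc* +/+ replicate 1, the highest liver.

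Mannose receptor *Mrc1*, which binds mannose-bearing glycoproteins and is used by sinusoidal endothelium as well as by macrophages, was at 289.0, 344.2, 256.0 and 346.6 in *Rragc* +/+ livers and 276.4, 315.5, 328.7 and 231.7 in *Rragc* S74N/+ livers. Its difference of -0.10 on the log2 scale (standard error 0.21, 95% interval -0.55 to 0.34) was smaller than the spread within either genotype (limma, adjusted p = 0.917).

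*Fcna* encodes ficolin A, a secreted lectin that Kupffer cells release into blood and that starts the lectin pathway of complement. Its normalized count was 507.1, 443.3, 282.9 and 569.0 in *Rragc* +/+ livers and 291.0, 274.6, 247.4 and 144.4 in *Rragc* S74N/+ livers. The 3 highest values were all *Rragc* +/+, while *Rragc* +/+ replicate 3 lay among the *Rragc* S74N/+ livers and *Rragc* S74N/+ replicate 4, the youngest mouse, was the lowest. Means were 451 ± 123 and 239 ± 65.8 (n = 4 each, SD), a log2 difference of -0.91 with a standard error of 0.28 and a 95% interval from -1.52 to -0.31. The difference did not pass the threshold (adjusted p = 0.846 in the limma fit). In 3-month-old mice alone the *Fcna* means were 411 and 283, and the log2 difference in that fit was -0.50.

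Among the 8 members that were tested, none passed the adjusted threshold, which 1 of the 11174 genes did (0.00895%). At an unadjusted p below 0.05, *Cd163* and *Fcna* were lower and none was higher, beside 578 genes (5.17%) in the whole table, 313 lower (2.80%) and 265 higher (2.37%). *Cd163* was the 1 tested member whose groups did not overlap, as was the case, in the lower direction, for 183 genes (1.64%). With *Marco*, 3 members had a difference above 0 and 6 below, with a median of -0.16 beside 0.01 over all tested genes.

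**Figure D2:**
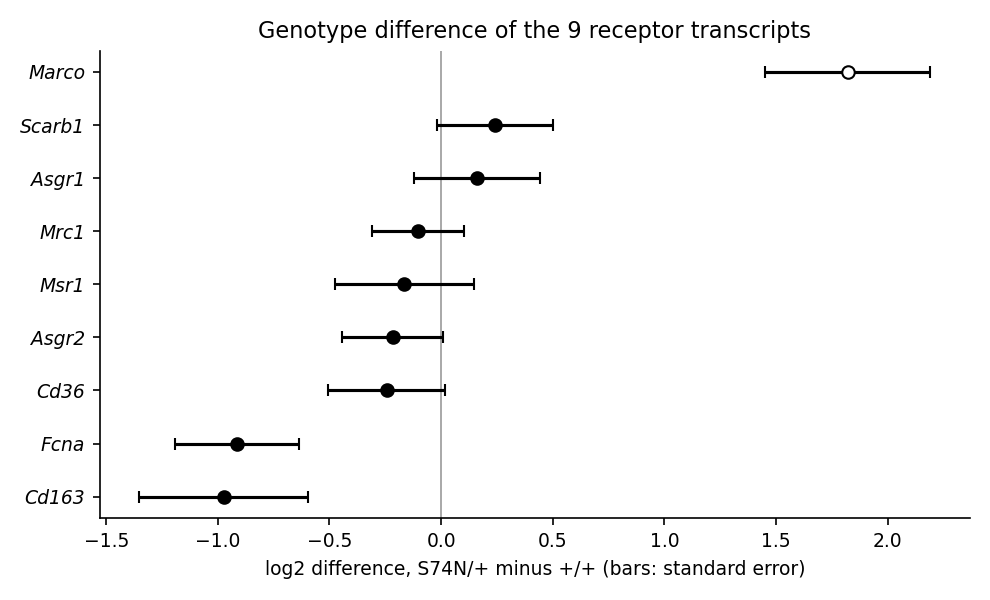
Difference between genotypes for each member on the log2(normalized count + 1) scale (horizontal axis), *Rragc* S74N/+ minus *Rragc* +/+, with bars of 1 standard error from the limma fit. The open point is *Marco*, which was picked for this difference. *Marco* lies at 1.82, *Cd163* at -0.97 and *Fcna* at -0.91, and the other 6 members lie between -0.24 and 0.24.

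The class B receptors take up lipid. *Cd36* binds long-chain fatty acids and oxidized lipoprotein on macrophages, endothelium and hepatocytes. It was at 112.8, 98.2, 89.1 and 105.6 normalized counts in *Rragc* +/+ livers and at 67.0, 79.1, 73.5 and 134.6 in *Rragc* S74N/+ livers. Of the *Rragc* S74N/+ livers, 3 lay below all the *Rragc* +/+ livers and replicate 4, from the 2-month-old mouse, lay above them all. Its log2 difference was -0.24 with a standard error of 0.26 (95% interval -0.81 to 0.32, limma, adjusted p = 0.857).

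*Scarb1* encodes the receptor through which hepatocytes take cholesterol from high-density lipoprotein. Values were 367.3, 684.6, 513.5 and 330.7 in *Rragc* +/+ and 688.6, 447.0, 436.8 and 624.1 in *Rragc* S74N/+ livers, with the genotypes interleaved. The log2 difference was 0.24 with a standard error of 0.26 (95% interval -0.32 to 0.81, limma, adjusted p = 0.857). A gene of unknown function, *Gm42633*, overlaps *Scarb1* on the same strand, so reads in the overlap are uncertain between them.

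*Asgr1* and *Asgr2* encode the subunits of the asialoglycoprotein receptor, the hepatocyte lectin that clears glycoproteins with exposed galactose. Their genes are neighbours on chromosome 11, with 34749 bases between them, and share one orientation. *Asgr1* was at 3011, 4794, 3094 and 1939 normalized counts in *Rragc* +/+ livers and 4520, 3330, 2346 and 3831 in *Rragc* S74N/+ livers. *Asgr2* was at 433.5, 513.4, 718.6 and 387.7 in *Rragc* +/+ and 483.8, 441.7, 351.0 and 451.9 in *Rragc* S74N/+ livers. The genotypes overlapped for both subunits, with log2 differences of 0.16 (standard error 0.28, 95% interval -0.45 to 0.77) and -0.22 (standard error 0.23, 95% interval -0.70 to 0.27), and neither passed the test (limma, adjusted p = 0.907 and 0.854).

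The balance of the subunits can be read within a liver, without any scaling between livers. The log2 ratio of *Asgr1* to *Asgr2* was 2.61 ± 0.50 in *Rragc* +/+ and 2.99 ± 0.21 in *Rragc* S74N/+ livers (n = 4 each, SD), a difference of 0.38 (exact two-sided permutation test, p = 0.257, 0.357 adjusted over 5 ratios). In this design of 4 livers against 4 the smallest p that test can give is 0.0286.

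With 3′ libraries, reads follow the number of transcripts rather than their length, so levels may be set side by side between genes with that limit in mind. In *Rragc* +/+ livers, *Asgr1* at 3209 ± 1180 normalized counts stood above the rest. *Asgr2* (513 ± 146), *Scarb1* (474 ± 161) and *Fcna* (451 ± 123) did not differ beyond their spread, *Mrc1* followed at 309 ± 44.2, then *Cd36* (101 ± 10.1), *Msr1* (79.7 ± 27.9) and *Cd163* (68.7 ± 34.6), which overlapped one another, and *Marco* was the lowest. In *Rragc* S74N/+ livers *Marco*, at 88.9 ± 39.2, was level with *Cd36* at 88.6 ± 31.1, and *Cd163*, at 32.95 ± 9.94 (SD, n = 4 for each value), was the lowest.

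To give the macrophage members a common reference, each was expressed relative to the mean log2 value of 18 genes listed for Kupffer cells in the same liver. In whole tissue these transcripts need not come from Kupffer cells alone, so the ratio is not a level per cell. This list mean was 7.42 ± 0.07 in *Rragc* +/+ and 7.56 ± 0.21 in *Rragc* S74N/+ livers (n = 4 each, SD), and the summed level of the list was 5790 to 7128 and 5788 to 7392 normalized counts. Relative to it, *Cd163* went from -1.42 ± 0.62 in *Rragc* +/+ to -2.53 ± 0.34 in *Rragc* S74N/+ livers, a difference of -1.11 (exact two-sided permutation test, p = 0.0286, 0.0714 adjusted over 5 ratios). *Fcna* went from 1.35 ± 0.47 to 0.30 ± 0.54, a difference of -1.05 with the same p and adjusted p. For both transcripts the 4 livers of each genotype did not overlap on this scale. The closest *Fcna* values were 0.72 in *Rragc* +/+ and 0.69 in *Rragc* S74N/+ livers, and its normalized counts did overlap. Neither transcript passed after adjustment, although 0.0286 is the smallest p the exact permutation test allows. With no other ratio at that minimum, the adjusted p could not fall below 0.05, so the test could not have called them. In 3-month-old mice alone the *Fcna* difference on this scale was -0.69. *Msr1* differed by -0.30 (p = 0.371) and *Mrc1* by -0.24 (p = 0.286) in the same exact test. *Marco*, untested, was at -2.89 ± 0.14 and -1.21 ± 0.58 on this scale.

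**Figure D3:**
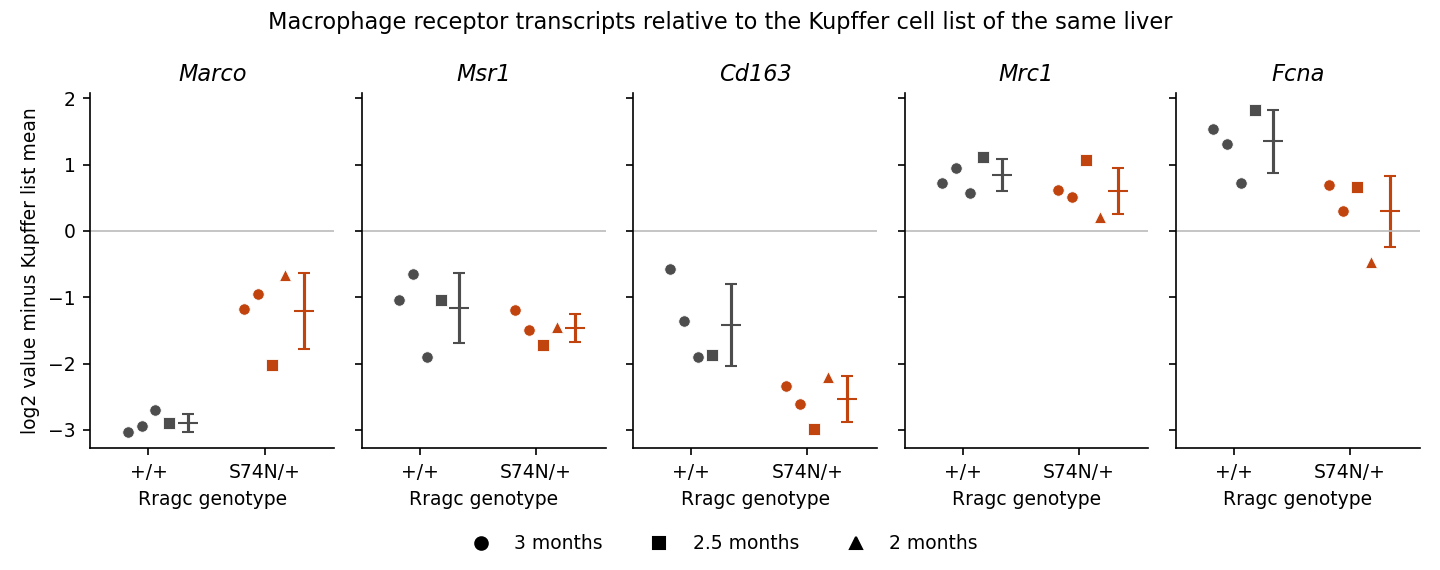
Log2 level of each macrophage member minus the mean log2 level of the Kupffer cell list in the same liver (vertical axis), by *Rragc* genotype. Points are livers, shapes give age, and bars are mean ± SD of 4 livers. *Marco* lies between -3.03 and -2.70 in *Rragc* +/+ and between -2.02 and -0.67 in *Rragc* S74N/+ livers, while *Cd163* and *Fcna* lie lower in *Rragc* S74N/+ livers without overlap.

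Kupffer cell genes themselves did not share 1 direction, with 11 of 18 above 0, 7 below and a median of 0.16, and none passed the adjusted threshold. *C1qc*, a chain of complement C1q, and *Adgre1*, which encodes F4/80, had an unadjusted p below 0.05 (limma, adjusted p = 0.846 for both). *C1qc* was at 64.3, 129.1, 103.3 and 56.1 in *Rragc* +/+ and 240.5, 192.0, 60.2 and 310.8 in *Rragc* S74N/+ livers, a log2 difference of 1.03. *Adgre1* was at 34.5, 49.6, 67.9 and 55.1 in *Rragc* +/+ and 57.8, 136.0, 59.1 and 131.3 in *Rragc* S74N/+ livers, a log2 difference of 0.80. In both transcripts *Rragc* S74N/+ replicate 3, the liver with the lowest *Marco* of its genotype, lay within the *Rragc* +/+ range, as did replicate 1 for *Adgre1*. Of the other defining markers, *Vsig4* (log2 difference 0.38), *Cd5l* (0.16) and *Timd4* (0.15) were above 0. *Csf1r* (-0.38), *Clec4f* (-0.37) and *C1qa* (-0.07), another C1q chain, were below. The remaining chain, *C1qb*, was at 0.17.

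After the mean of each genotype was subtracted, *Marco* followed some Kupffer cell genes across the 8 livers and not others. Pearson's r was 0.90 with *Vsig4*, a complement receptor, 0.86 with *C1qc* and 0.76 with *Adgre1*, but -0.44 with *Clec4f*, -0.01 with *Timd4* and -0.75 with *Folr2*, the lowest of the 18. These values share livers and size factors and are a description. *Marco* log2 values ran from 4.43 to 4.73 in *Rragc* +/+ and from 5.28 to 6.98 in *Rragc* S74N/+ livers. Its r values therefore rest mainly on the *Rragc* S74N/+ livers, of which replicate 3 lay farthest from the group mean. *Vsig4* was at 163.1, 183.3, 151.4 and 174.7 in *Rragc* +/+ and 207.5, 273.7, 150.4 and 265.9 in *Rragc* S74N/+ livers (log2 difference 0.38, limma, adjusted p = 0.846). Across the 36 pairs of members, r ran from -0.64 for *Mrc1* and *Asgr2* to 0.90 for *Scarb1* and *Asgr1*, and *Marco* reached at most 0.52, with *Asgr2*. *Mrc1* and *Fcna* gave 0.77. Over all 6916 genes with a mean of at least 50, those most like *Marco* by this measure were *Rhobtb1* (r = 0.99), *Dcaf7* (0.96), *Ttc9c* (0.96), *Ybx3* (0.96) and *Anxa5* (0.96). Spearman's rank correlation for them was 0.95, 0.74, 0.98, 0.83 and 0.71, in the same order.

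No marker of another cell type passed the adjusted threshold. Of 14 genes listed for monocytes and infiltrating macrophages, 11 were in the table and 6 passed the filter of a mean of 10. *Plac8* and *Ccr2* passed it only through the *Rragc* S74N/+ livers, where they were higher, so nothing is read from the direction shared by the tested genes of this list, beside 5737 of 11174 tested genes above 0. Among those under the filter, *Trem2* was at 2.34 ± 3.54 and 2.17 ± 2.94 and *Gpnmb* at 1.17 ± 1.40 and 0.22 ± 0.44 normalized counts (n = 4 each, SD). Unadjusted p was below 0.05 for *Cd9* (18.2 ± 3.57 against 43.1 ± 13.4, log2 difference 1.16) and the lysozyme gene *Lyz2* (174 ± 55.2 against 301 ± 126, log2 difference 0.74). In the whole table, 265 of 11174 genes (2.37%) were higher at that level. *Plac8* (9.28 ± 8.74 against 40.6 ± 25.02, log2 difference 2.15) was also below 0.05, but nothing is read from it, given how it passed the filter. Each SD is of n = 4, and the limma adjusted p was 0.846 for each of these genes. The summed level of the list was 202.7 to 323.6 in *Rragc* +/+ and 261.9 to 633.7 in *Rragc* S74N/+ livers. By the means, most of this sum was *Lyz2*, and it includes *Plac8* and *Ccr2*, so nothing is read from it. Defining markers of the list were scarce, with *Itgam* at 1.40 ± 2.22 and 2.73 ± 0.42, *Ly6c2* at 6.33 ± 5.81 and 12.1 ± 5.26 and *Ccr2* at 7.25 ± 3.59 and 13.6 ± 5.09 normalized counts (n = 4 each, SD). The part of these cells in the *Marco* difference was not tested.

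Of 5 genes listed for splenic macrophages, where *Marco* is known from the marginal zone, 4 were tested, 2 were above 0 and 2 below, and none passed the test at an unadjusted p of 0.05. *Treml4*, a receptor of splenic macrophages, gave the largest difference, at 5.59, 7.48, 5.66 and 5.61 normalized counts in *Rragc* +/+ and 20.2, 35.6, 3.34 and 23.7 in *Rragc* S74N/+ livers (log2 difference 1.27, standard error 0.67, limma, adjusted p = 0.846). Its *Rragc* S74N/+ replicates 1, 2 and 4 lay above every *Rragc* +/+ liver and replicate 3, again the lowest, below them, and it too passed the filter only through the *Rragc* S74N/+ livers. *Siglec1* and *Spic* differed by -0.36 and 0.35. *Cd209b*, a defining marker of the marginal zone, was at 1.87 ± 1.33 and 3.62 ± 2.22 normalized counts. The peritoneal and capsular list had 5 tested genes, with 2 above 0, 3 below and a median of -0.05. *Gata6*, its defining gene, was at 42.5 ± 22.2 and 43.7 ± 14.2 (SD, n = 4 for these values), and *Tgfb2* and *Icam2* differed by -0.42 and -0.31. The list also holds *Cd207*, which was under the filter and is given below with the lectins.

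The sinusoidal endothelium, which shares *Mrc1*, *Cd36* and the stabilin receptors with macrophages, had 8 of 14 genes above 0 and 6 below, with a median of 0.11. *Lyve1*, a hyaluronan receptor (37.0 ± 14.6 against 75.3 ± 29.2), and *Pecam1* (65.3 ± 25.2 against 117 ± 28.1) were higher, and *Eng* (244 ± 47.3 against 167 ± 61.3) lower, each at an unadjusted p below 0.05 (limma, adjusted p = 0.846 for each, SD with n = 4). The log2 difference of *Eng* was -0.59, and -0.24 in 3-month-old mice alone. The summed level of the list was 2716 to 3270 in *Rragc* +/+ and 2593 to 3076 in *Rragc* S74N/+ livers, so the ranges overlapped. Hepatocyte genes, 9 of which were tested, had 6 above 0, 3 below and a median of 0.36, and none passed at an unadjusted p of 0.05. *Cps1*, a urea cycle enzyme, gave the largest difference, 0.87 with a standard error of 0.45, and ran from 0.38 to 1.19 with single livers left out. Albumin (*Alb*) was at 91226 ± 50784 and 151424 ± 72479 normalized counts (n = 4 each, SD), a log2 difference of 0.75. The 3 hepatocyte genes below 0 were *Apob* (-0.56), *Apoa1* (-0.33) and *Serpina1a* (-0.14).

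Other scavenger receptors gave no call in either direction. Of 25 listed, 19 were in the table and 14 were tested, 6 above 0 and 8 below, with a median of -0.03. The largest differences were those of *Scara3* (-1.03), *Scara5* (-0.61) and *Lgals3bp* (-0.43), with standard errors of 0.76, 1.07 and 0.26. Mean normalized counts in *Rragc* +/+ and *Rragc* S74N/+ livers were 16.4 and 5.71 for *Scara3* and 16.8 and 6.69 for *Scara5*. Both passed the filter only through the *Rragc* +/+ livers, so nothing is read from their direction. *Scara5*, a ferritin receptor, ranged from 0 to 33.6 in *Rragc* +/+ livers alone, from at most 36 reads. *Stab2*, the hyaluronan scavenger receptor of the endothelium, was at 189 ± 34.4 and 161 ± 38.8 (n = 4 each, SD), a difference within its spread.

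Of 35 other lectin receptors and soluble lectins, 27 were in the table and 23 were tested, 10 above 0 and 13 below, with a median of -0.05. Among those above 0, *Clec4n* (means of 9.12 in *Rragc* +/+ and 16.7 in *Rragc* S74N/+ livers) passed the filter only through the *Rragc* S74N/+ livers. *Mbl2*, a hepatocyte mannose-binding lectin that, like ficolin A, starts the lectin pathway, was at 743, 1193, 992 and 1229 in *Rragc* +/+ and 1606, 1370, 1144 and 2199 in *Rragc* S74N/+ livers. All but replicate 3 of the *Rragc* S74N/+ livers lay above the *Rragc* +/+ range, and the log2 difference was 0.59 with a standard error of 0.24 (adjusted p = 0.846 in the limma fit, unadjusted p below 0.05). *Colec11*, another soluble lectin, was lower in every *Rragc* S74N/+ liver, at 139 ± 10.9 and 115 ± 10.01 (n = 4 each, SD), with a log2 difference of -0.27 and an adjusted p of 0.846 in the same test. *Cd207*, the lectin langerin, also in the capsular macrophage list, was too low to be tested, with 0, 0, 1 and 0 reads in *Rragc* +/+ and 6, 13, 6 and 13 reads in *Rragc* S74N/+ livers, groups that did not overlap. The scavenger receptor *Scarf2*, also under the filter, went the other way without overlap, at 10.3 to 12.7 normalized counts in *Rragc* +/+ and 4.44 to 9.79 in *Rragc* S74N/+ livers. *Colec11*, *Cd207* and *Scarf2* were singled out after their values were seen. Of the tested genes, 1.64% were lower and 1.30% higher in *Rragc* S74N/+ livers without overlap, and no such share was computed under the filter.

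The ligands, partners and adaptors of these receptors gave no call either, with 27 of 30 in the table, 26 tested, 11 above 0 and 15 below, and a median of -0.09. Haptoglobin (*Hp*), whose complex with haemoglobin *Cd163* binds, was at 7361 ± 658 and 6923 ± 1621 normalized counts, and *Hmox1*, which breaks down the haem, at 66.5 ± 25.9 and 79.0 ± 42.7 (n = 4 each, SD). *Masp1*, a protease that ficolins and mannose-binding lectins activate, was at 708 ± 124 and 678 ± 159 (n = 4 each, SD). The largest differences were those of *Ppara* (-0.56), *Apob* (-0.56) and *Adam17* (0.53), none past the test (limma, adjusted p = 0.846 for each). Those of *Ppara* and *Apob* rested in part on single livers. *Ppara* was at -0.25 without *Rragc* S74N/+ replicate 4 and -0.95 without replicate 3, and *Apob* at -0.87 without replicate 3. The *Adam17* difference was 0.33 in 3-month-old mice alone and ran from 0.37 to 0.67 with single livers left out. *Adam17*, a protease known to shed *Cd163* from the cell surface, was at 55.3 ± 13.1 and 80.3 ± 20.5 (n = 4 each, SD).

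**Figure D4:**
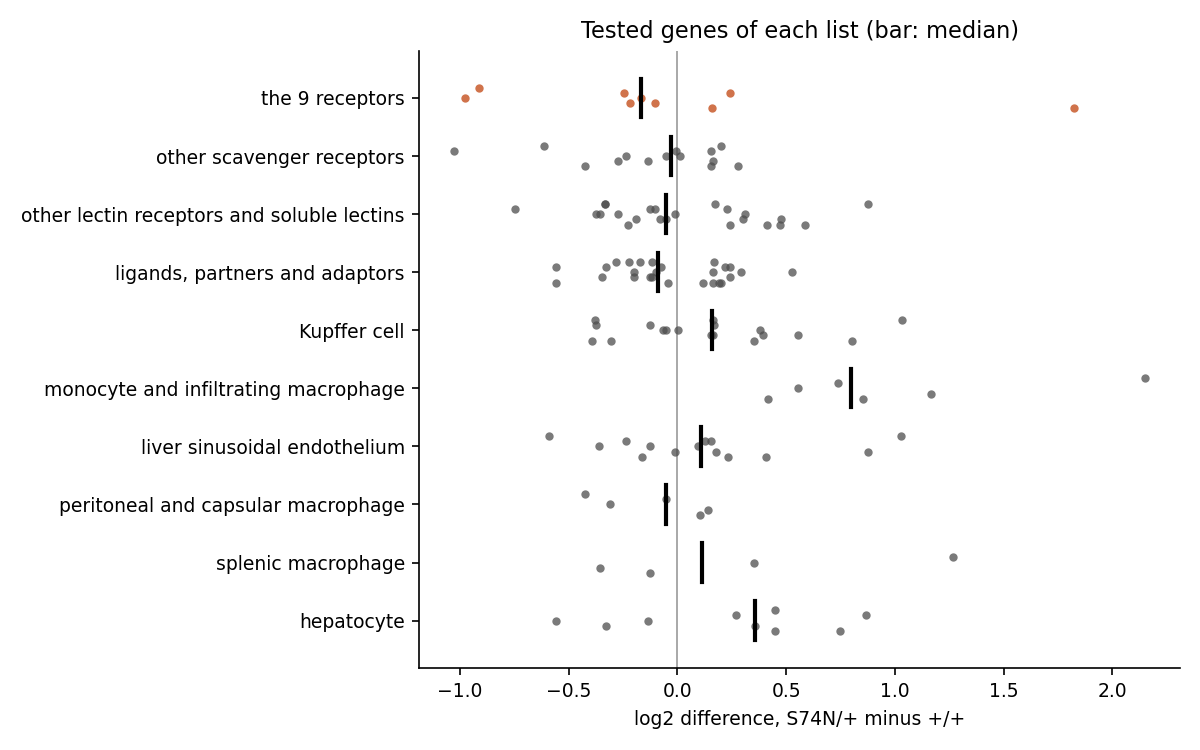
Genotype difference on the log2(normalized count + 1) scale (horizontal axis), *Rragc* S74N/+ minus *Rragc* +/+, for the tested genes of each list (rows). Each point is a gene and the vertical bar is the median of the list. The 9 receptors spread from -0.97 to 1.82 around a median of -0.16. In the monocyte list, *Plac8* and *Ccr2* passed the filter of a mean of 10 only through the *Rragc* S74N/+ livers. So did *Treml4* in the splenic list and *Clec4n* among the lectins, while *Scara3* and *Scara5* passed it only through the *Rragc* +/+ livers.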

How the data were processed

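The authors aligned the liver reads to GRCm38 with TopHat2 (2.0.10), Bowtie (1.0.0) and SAMtools (0.1.19), used HTSeq (0.6.1) for strand-specific gene counts, which DESeq then scaled. What they deposited is this signal, the normalized read count of each gene in each liver. Every value (100%) was a whole multiple of its liver's step, within a tolerance of 0.001, so the whole reads were recovered. Alternative starts and overlapping genes keep the assignment of the authors' counting.

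Differences are *Rragc* S74N/+ minus *Rragc* +/+ on log2(normalized count + 1), fitted with limma 3.58.1 in R 4.3.3 (empirical Bayes with a mean-variance trend, genotype as the only term) for genes whose mean over the livers reached 10 (11174 genes, all 9 members included). Benjamini-Hochberg adjustment over these genes was read at 0.05. Low counts are shrunk toward no change on this scale. Ratios within a liver were compared by an exact permutation test over 70 labellings. Alternatives were DESeq2 1.42.0 and edgeR 4.0.16 (quasi-likelihood) on recovered reads, pseudocounts of 0.1 and 5, no filter or a mean of 50, TMM or upper-quartile rescaling, array weights, no mean-variance trend, mice aged 3 months alone, an age term, and leaving out each liver. The scripts were tested on simulated counts.

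Members and lists were chosen with earlier results of these data known. Named are the members, the genes of each list with an unadjusted p below 0.05 or else the 3 with the largest differences, defining markers, and the 5 genes most like *Marco* within genotypes. *Stab2*, *Hp*, *Hmox1* and *Masp1* were named for their roles, and the motifs, *Folr2*, *C1qb*, *Clec4n*, *Serpina1a*, *Colec11*, *Cd207* and *Scarf2* after the values were seen. Coordinates are those of GENCODE M21, a neighbouring release of the annotation used for counting.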

Additional observations from a re-analysis of the deposited data

Results flagged for a closer look

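*Msr1* in *Rragc* S74N/+ replicate 3 lay apart from the other livers of its genotype, with a log2 value of 5.58 (46.8 normalized counts) against 6.20 to 6.31 in the other 3. Its gap to the nearest liver was larger than Dixon's 95% critical value for 4 samples allows. Across the 9 members in 2 genotypes, 18 groups were examined and 1 stood out, where about 1 in 20 groups, or 0.9 here, do so by chance.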

How the results depend on the processing

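The *Marco* difference ran from 1.67 to 2.03 over 12 settings and from 1.61 to 2.18 when livers were left out in turn. Nothing is read from its unchanged direction, since *Marco* was picked for that difference and its groups did not overlap. No tested member crossed the adjusted threshold in any of these settings or with a liver left out. *Cd163* ran from -1.11 to -0.89 and, with livers left out, from -1.16 to -0.68. *Fcna* ran from -0.92 to -0.50, the last in 3-month-old mice alone, and with livers left out from -1.12 to -0.69. Relative to the Kupffer cell list, *Fcna* ran from -1.06 to -0.69 and *Cd163* from -1.20 to -1.02, and with livers left out from -1.26 to -0.80 and -1.27 to -0.83. On recovered reads the adjusted p was 0.812 for both in edgeR, and in DESeq2 it was 0.647 for *Cd163* and 0.390 for *Fcna*. The count of genes past the threshold, 1 here, was 0 without the mean-variance trend, 0 with age as a covariate, 0 in 3-month-old mice alone and 10 in DESeq2, and 0 to 2 with livers left out (2 without *Rragc* S74N/+ replicate 3), beside 312 to 1682 genes at an unadjusted p below 0.05. For these 3 counts of 0, limma called 603, 415 and 640 genes at an unadjusted p below 0.05. The cause was not tested. Differences that had not passed the test changed sign in 3-month-old mice alone for *Msr1* (0.048), *Mrc1* (0.0052), *Scara5* (0.66), *Icam2* (0.030), *Gata6* (-0.53) and *Siglec1* (0.20), and with a liver left out for *Msr1* (-0.41 to 0.026), *Asgr1* (-0.057 to 0.38), *Gata6* (-0.12 to 0.38) and *Spic* (-0.017 to 0.67). No paired analysis was possible because the labels number no mice, and the numbers used here were given in accession order. The chief limits are 4 mice per genotype, unbalanced age, whole tissue and, for *Marco* and *Cd163*, few reads.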
